A study of Mus musculus with 2 samples.

Results

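Markers of fibrous connective tissue were compared between rib chondrocyte preparations of mice carrying the V156D knock-in of Matn1 and of wild-type mice. The markers are 39 genes of perichondrium, tendon and fibroblasts other than collagens and proteoglycans, of 18193 genes measured, and all 39 had at least 1 probe set annotated to a single gene symbol. The V156D mutant group and the wild-type group each consisted of 1 Affymetrix Mouse Genome 430 2 array, from mice 5 days old whose rib cells had been released with collagenase. The series text describes RNA of pooled cells from 5 littermates, so the spread between animals was not measured, and it does not say whether 5 animals stood behind each array, nor how many clones or founders the knock-in line came from. Matn1 encodes matrilin-1, which chondrocytes secrete as multimers into cartilage. With 1 array a group there is no replicate error, no test and no p-value, and every value below compares those 2 arrays, whose median intensities were 55.1 for the mutant and 54.3 for wild type. The genes were chosen as markers with earlier results of these data known, so their values are a description.

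Fibrous tissue surrounds rib cartilage as perichondrium, and tendons, ligaments and intercostal fascia attach to it. Its cells lay down periostin, tenascins and other adhesive proteins between collagen fibrils, whereas chondrocytes build a matrix of collagen II and aggrecan. Tendon progenitors depend on the transcription factor scleraxis (Scx), mature tendon cells make the membrane protein tenomodulin (Tnmd), and fibroblasts in many tissues share surface proteins such as Pdgfra, Thy1 and Cd248.

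Most of the fibrous tissue markers had higher signals in the mutant array, and the secreted matrix proteins lay farthest from equality. For each gene the probe set of highest mean log2 intensity was used, and a signal floor was set at an intensity of 54.6, the 50th percentile of all probe sets. Of the 39 genes, 35 lay at or above this floor, 32 of them with ratios above 0 and 3 with ratios below 0, whereas ratios above 0 made up 44.8% of all 11329 genes that reached the floor. At least 2-fold higher were 10 of the 35, against 0.653% of all genes at or above the floor, and 0 were at least 2-fold lower, against 0.256% of all genes. At least 1.5-fold higher were 19, where all genes gave 1.7%, and 0 were 1.5-fold lower, where all genes gave 2.02%. The 5 markers at least 3-fold higher were among 16 such genes at or above the floor, or 0.141% of all genes that reached it. The median log2 ratio (mutant over wild type, as throughout) was 0.58 for the 39 markers and -0.01 for all genes. In such bulk preparations, a larger number of fibrous cells and more RNA per cell cannot be told apart.

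**Figure D1:**
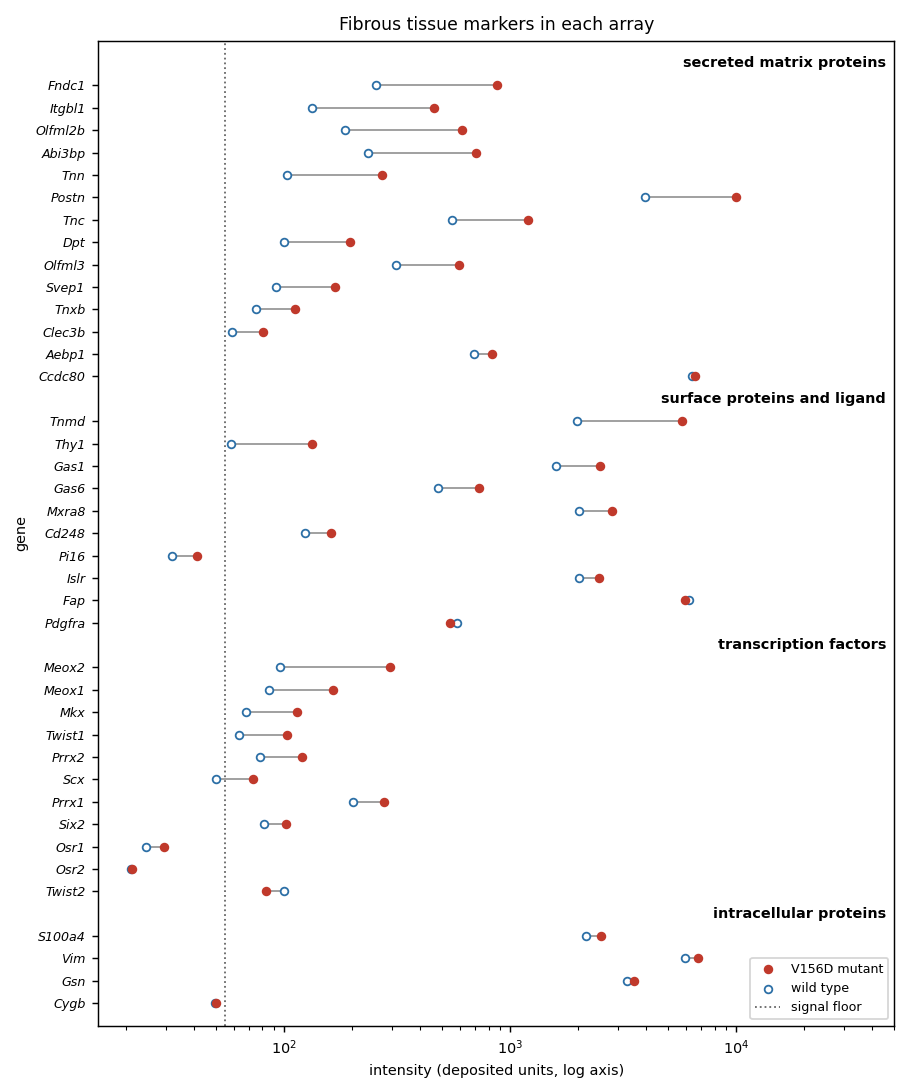
Intensity of each of the 39 markers on a log axis, in the V156D mutant array (filled) and the wild-type array (open), grouped by the role of the protein, with the signal floor dotted. Itgbl1 stands at 457 in the mutant and 133 in wild type, while Fap, Pdgfra and Twist2 have the mutant point on the left; levels are not comparable between genes.

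The 14 secreted matrix and matrix-associated proteins had a median log2 ratio of 1.05, and 7 of them had at least 2-fold more signal in the mutant. Fndc1, a secreted protein with fibronectin type III domains, had an intensity of 874 in the mutant and 253 in wild type, a log2 ratio of 1.79 that was 1.09 as the mean of its probe sets. Itgbl1, which encodes a protein of integrin-like EGF repeats, had 457 in the mutant and 133 in wild type, a ratio of 1.78. Olfml2b, an olfactomedin-domain protein, had 613 in the mutant and 185 in wild type, a ratio of 1.73. Abi3bp, a matrix protein that binds collagens, was 3.02-fold higher, at 706 in the mutant and 234 in wild type. These 4 genes and the transcription factor gene Meox2 were the markers past 3-fold.

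Periostin and the tenascins, matricellular proteins of periosteum, tendon and healing tissue, also had higher signals in the mutant array. Postn, which encodes periostin, had an intensity of 10007 in the mutant and 3954 in wild type, a log2 ratio of 1.34. Tnn, the tenascin of periosteum also called tenascin-W, had 271 in the mutant and 103 in wild type, a ratio of 1.40. Tnc, encoding tenascin-C, had 1198 in the mutant and 549 in wild type, a ratio of 1.13. A second Tnc probe set had 178 in the mutant and 187 in wild type, a ratio of -0.07, so the value of Tnc depended on the probe set and averaged 0.53. Tnxb, encoding the tenascin-X of loose connective tissue, reached 111 in the mutant and 74.7 in wild type, a ratio of 0.58. Among the tenascins the log2 ratio of Tnn thus exceeded that of Tnxb by 0.82 and that of Tnc by 0.27, or 0.87 with averaged probe sets.

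The other 6 matrix proteins were less than 2-fold apart, and their ratios ran from 0.97 down to 0.05. Dpt, encoding dermatopontin, which binds decorin, had an intensity of 196 in the mutant and 99.6 in wild type, a log2 ratio of 0.97. Olfml3, a relative of Olfml2b, had 595 in the mutant and 312 in wild type, a ratio of 0.93, which was 0.79 below that of Olfml2b. Svep1, a large adhesive protein, had 168 in the mutant and 92.1 in wild type, a ratio of 0.86. Dpt lay just under 2-fold, and Tnc was the nearest matrix gene above it. Clec3b, encoding the plasminogen-binding tetranectin, had 80.7 in the mutant and 58.4 in wild type, or 1.38-fold. Aebp1, a collagen-binding protein, had 831 in the mutant and 690 in wild type, or 1.20-fold. Ccdc80, a secreted matrix protein, was nearly equal at 6545 in the mutant and 6330 in wild type, a ratio of 0.05.

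The promoters of 2 of these genes are shown because both genes differed over 2-fold and each holds a core promoter or factor motif that was searched. Windows ran from 250 bases before to 50 bases after the gene's start and were taken from RefSeq on GRCm38.p6, in which 27 of the 39 markers had a window. Capitals mark TATAAA (the TATA box), TAATTA (a core bound by homeodomain proteins), CATCTG (an E-box form) and TGANTCA (the AP-1 site), on either strand and without regard to overlap. The Postn window is the one of 2 that holds a motif, chr3:54360857-54361156 on the plus strand, and the Itgbl1 window is chr14:123659890-123660189 on the plus strand.
Postn: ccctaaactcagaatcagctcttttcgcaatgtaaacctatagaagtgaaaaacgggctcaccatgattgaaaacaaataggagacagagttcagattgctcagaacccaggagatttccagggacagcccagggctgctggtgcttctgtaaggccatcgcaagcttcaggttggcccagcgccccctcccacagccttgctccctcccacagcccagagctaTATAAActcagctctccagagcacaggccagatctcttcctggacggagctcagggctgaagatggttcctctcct
Itgbl1: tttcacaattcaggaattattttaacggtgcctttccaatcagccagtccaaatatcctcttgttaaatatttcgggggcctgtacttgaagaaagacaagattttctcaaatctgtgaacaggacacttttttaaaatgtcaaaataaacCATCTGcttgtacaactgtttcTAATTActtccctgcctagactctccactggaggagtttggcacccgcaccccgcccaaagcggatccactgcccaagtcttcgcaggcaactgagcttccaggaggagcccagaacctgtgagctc
In the Postn window TATAAA starts 26 bases before the gene's start, and the Itgbl1 window holds 1 CATCTG and 1 TAATTA.

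Among 9 surface proteins and the ligand Gas6, 2 reached 2-fold with the higher signal in the mutant array, and 2 had ratios just below 0. The median log2 ratio of the 10 genes was 0.43. Tnmd, the tenomodulin of mature tendon cells, had an intensity of 5744 in the mutant and 1977 in wild type, a log2 ratio of 1.54. Thy1, the CD90 antigen of fibroblasts, which some other cell types share, had 133 in the mutant and 58.3 in wild type, a ratio of 1.19. The wild-type value of Thy1 lay close to the floor, and its ratio was 0.87 with 32 added to both intensities. Gas1, a co-receptor for hedgehog ligands, had 2480 in the mutant and 1596 in wild type, or 1.55-fold, and its other probe sets gave ratios of 0.69 and -0.13, for an average over all of 0.40. Gas6, the ligand of the Axl family of receptor kinases, had 726 in the mutant and 479 in wild type, or 1.51-fold.

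The other 6 surface markers, several of them in wide use to identify fibroblasts, were less than 1.5-fold apart. Pdgfra, the PDGF receptor alpha, had an intensity of 541 in the mutant and 579 in wild type, a log2 ratio of -0.10, and its other probe sets gave 0.12 and -0.28. Fap, a serine protease of activated fibroblasts, had 5950 in the mutant and 6189 in wild type, a ratio of -0.06 that became 0.01 after quantile normalization. Cd248, the endosialin of stromal cells, had 161 in the mutant and 123 in wild type, or 1.31-fold. Mxra8, a membrane protein that serves as an alphavirus receptor, had 2808 in the mutant and 2018 in wild type, a ratio of 0.48. Islr, a marker of mesenchymal stromal cells also called meflin, had 2468 in the mutant and 2003 in wild type, a ratio of 0.30. Pi16, a marker of adventitial fibroblasts, stayed below the floor at 41.2 in the mutant and 31.9 in wild type, and its probe sets gave opposite signs at 0.37 and -0.25.

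The promoter window of Tnmd, the surface marker with the highest ratio, is chrX:133850758-133851057 on the plus strand, with its TAATTA in capitals.
Tnmd: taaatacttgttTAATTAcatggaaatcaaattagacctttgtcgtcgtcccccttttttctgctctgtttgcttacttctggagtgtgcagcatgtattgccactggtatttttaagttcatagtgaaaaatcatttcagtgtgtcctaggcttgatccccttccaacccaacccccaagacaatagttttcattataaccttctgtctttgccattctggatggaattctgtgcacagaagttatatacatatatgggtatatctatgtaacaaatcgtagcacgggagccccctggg
Of the 27 markers with a window, TAATTA occurred in 3, Itgbl1, Prrx1 and Tnmd, or 11.1%, against 6.12% of all 27025 genes with a window. TATAAA occurred in 9 (33.3%, against 15.7% of all genes), CATCTG in 8 (29.6%, against 19.2%) and TGANTCA in 1 (3.70%, against 8.97%). A match describes the letters of a window and does not show that a factor binds there.

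Of the 11 transcription factors, 9 lay at or above the floor, 8 of them with ratios above 0, and the median log2 ratio over the 11 was 0.54. Meox2, a mesenchyme homeobox factor of somite and muscle development, had an intensity of 292 in the mutant and 95.2 in wild type, a log2 ratio of 1.62, and its second probe set gave 1.20. Its paralog Meox1, which acts in the formation of the sclerotome from which ribs arise, had 165 in the mutant and 85.2 in wild type, a ratio of 0.95. Meox2 was the only one of the 11 factors past 2-fold. The ratios of the tendon factors Mkx and Scx were smaller than that of the tendon cell product Tnmd. Mkx, the tendon homeobox factor Mohawk, had 114 in the mutant and 67.9 in wild type, a ratio of 0.74. Scx had 73.0 in the mutant and 50.1 in wild type, a ratio of 0.54, and reached the floor through the mutant value, the wild-type value being below it. A second Scx probe set, itself below the floor, gave 0.15, and the average was 0.35.

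Factors of limb and head mesenchyme had ratios under 1 throughout. Prrx1, a paired-related homeobox factor, had 276 in the mutant and 201 in wild type, a log2 ratio of 0.45. Its mean was 0.43 ± 0.24 over 6 probe sets (SD over probe sets of the same arrays), of which 4 lay at or above the floor. Prrx2 had 119 in the mutant and 78.3 in wild type, a ratio of 0.61, so the paired-related genes differed from each other by 0.15. Six2, a homeobox factor of mesenchyme and kidney progenitors, had 102 in the mutant and 81.5 in wild type, a ratio of 0.32. The odd-skipped zinc finger genes were below the floor in both arrays, Osr1 at 29.2 in the mutant and 24.5 in wild type. Osr2 had 21.2 in the mutant and 21.0 in wild type.

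The Twist genes encode related basic helix-loop-helix factors of early mesenchyme, and their ratios had opposite signs. Twist1 had an intensity of 103 in the mutant and 62.7 in wild type, a log2 ratio of 0.71, whereas Twist2 had 82.8 in the mutant and 99.3 in wild type, a ratio of -0.26. Their ratios differed by 0.97, or 0.70 with the offset of 32, with 1 probe set for each gene. The promoter windows of Meox2 (chr12:37108290-37108589), Twist1 (chr12:33957421-33957720) and Twist2 (chr1:91801211-91801510), all on the plus strand, are shown for the factor with the highest ratio and for the pair with opposite signs.
Meox2: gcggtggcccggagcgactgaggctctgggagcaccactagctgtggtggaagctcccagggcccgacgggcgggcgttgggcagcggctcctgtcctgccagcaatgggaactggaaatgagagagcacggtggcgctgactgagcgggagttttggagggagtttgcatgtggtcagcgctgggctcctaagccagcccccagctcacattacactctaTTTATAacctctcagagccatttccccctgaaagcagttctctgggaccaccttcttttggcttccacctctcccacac
Twist1: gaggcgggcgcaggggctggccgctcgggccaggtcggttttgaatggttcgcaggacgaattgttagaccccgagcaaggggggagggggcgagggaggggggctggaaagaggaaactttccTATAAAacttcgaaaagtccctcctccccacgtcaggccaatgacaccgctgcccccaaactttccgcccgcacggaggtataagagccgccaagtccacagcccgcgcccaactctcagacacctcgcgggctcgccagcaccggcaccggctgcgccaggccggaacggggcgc
Twist2: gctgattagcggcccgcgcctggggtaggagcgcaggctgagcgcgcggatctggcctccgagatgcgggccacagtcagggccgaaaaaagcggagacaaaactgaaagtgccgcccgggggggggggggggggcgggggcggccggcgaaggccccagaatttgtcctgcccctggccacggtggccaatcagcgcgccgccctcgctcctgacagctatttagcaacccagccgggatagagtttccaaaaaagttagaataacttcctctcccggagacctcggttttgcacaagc
Meox2 holds TATAAA on the minus strand, Twist1 holds it on the plus strand 126 bases before the gene's start, and the Twist2 window holds none of the searched motifs.

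The intracellular markers, which many mesenchymal cells share, were nearly equal in the arrays. S100a4, a calcium-binding protein of motile fibroblasts, had an intensity of 2514 in the mutant and 2162 in wild type, a log2 ratio of 0.22. Vim, the intermediate filament protein vimentin, had 6780 in the mutant and 5937 in wild type, a ratio of 0.19, but its other probe sets gave -0.17 and -0.14. Gsn, the actin-severing protein gelsolin, had 3533 in the mutant and 3268 in wild type, a ratio of 0.11. Its mean was -0.05 ± 0.17 over 6 probe sets (SD), of which 4 lay at or above the floor. Cygb, the globin cytoglobin of fibroblasts, was below the floor at 49.7 in the mutant and 49.5 in wild type. The sign of Vim and of Gsn therefore depended on the probe set, and the median of the 4 genes of 0.15 was -0.02 with averaged probe sets.

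**Figure D2:**
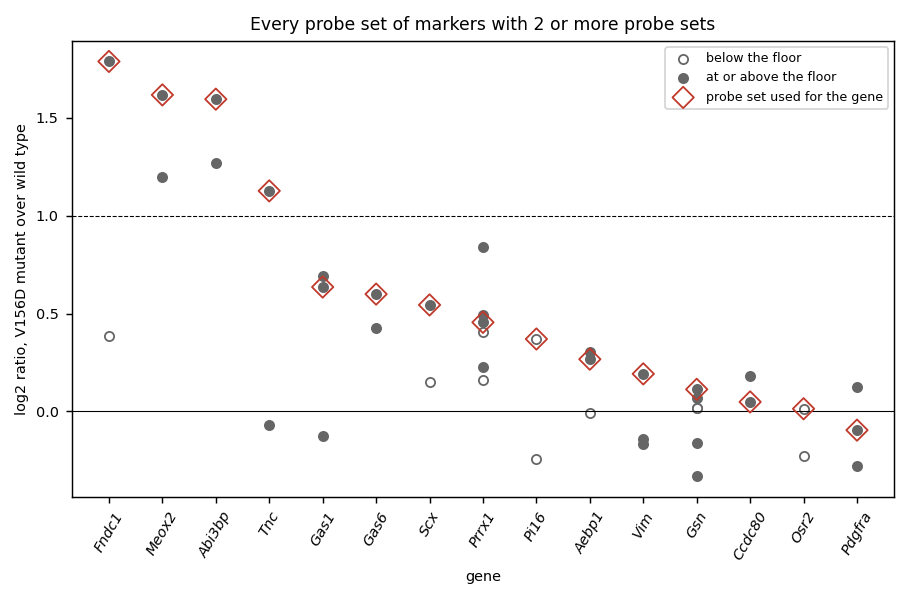
Log2 ratio of V156D mutant over wild type for every probe set of the 15 markers that have 2 or more, with filled points at or above the floor, open points below it and a diamond around the probe set used. Both probe sets of Abi3bp and of Meox2 lie above 1, while Tnc has 1 probe set at 1.13 and 1 at -0.07.

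Probe sets of a gene are the only repeat measurement in these data, and they measure probe error within the arrays. The 39 markers had 66 probe sets, 53 of them at or above the floor, and 24 markers had 1 probe set only. Of the 11 markers with 2 or more probe sets at or above the floor, 6 had probe sets of 1 sign and 5 (Tnc, Gas1, Pdgfra, Vim and Gsn) had both signs. Over 4878 genes the difference between the ratios of the 2 brightest probe sets had an SD of 0.26. Abi3bp and Meox2, each with 2 probe sets at or above the floor, were over 2-fold higher by both, as 1.60 and 1.27 for Abi3bp show. Fndc1 had a second probe set below the floor with a ratio of 0.39. The other 6 markers at least 2-fold higher, which were Postn, Tnn, Olfml2b, Itgbl1, Tnmd and Thy1, rested on 1 probe set each.

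Because the scatter of ratios depends on signal, each marker was also placed among the 200 genes nearest to it in mean signal. Of the 35 markers at or above the floor, 20 lay above the central 95% of those neighbours, 15 lay within it and 0 lay below it. For Postn the central 95% of neighbours ran from -0.64 to 0.24, and for Tnmd from -0.41 to 0.29, with no neighbour of either gene as high. For Tnxb it ran from -0.50 to 0.63, which held the marker's own 0.58. The genes were also divided by signal into 10 classes of equal size, with class 10 the brightest. In class 10 the 10 markers there, among them Postn, Tnmd, Fap and Vim, had a median log2 ratio of 0.26, against -0.04 for all 1820 genes of that class. In class 9, 6 markers had a median of 0.77, against -0.05, and in class 6, 5 markers had 0.86, against 0.00. From class 5 to class 10 the median of the markers was above that of all genes of the class. The 4 markers below the floor fell in classes 2 to 4. Class 2 held Osr2 at 0.01, against -0.00 for its genes, and class 3 held Osr1 and Pi16 with a median of 0.31, against 0.01. In class 4 the only marker, Cygb at 0.01, lay below the class median of 0.02. Markers of like signal still ranged widely, as Tnmd and Fap did in class 10.

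**Figure D3:**
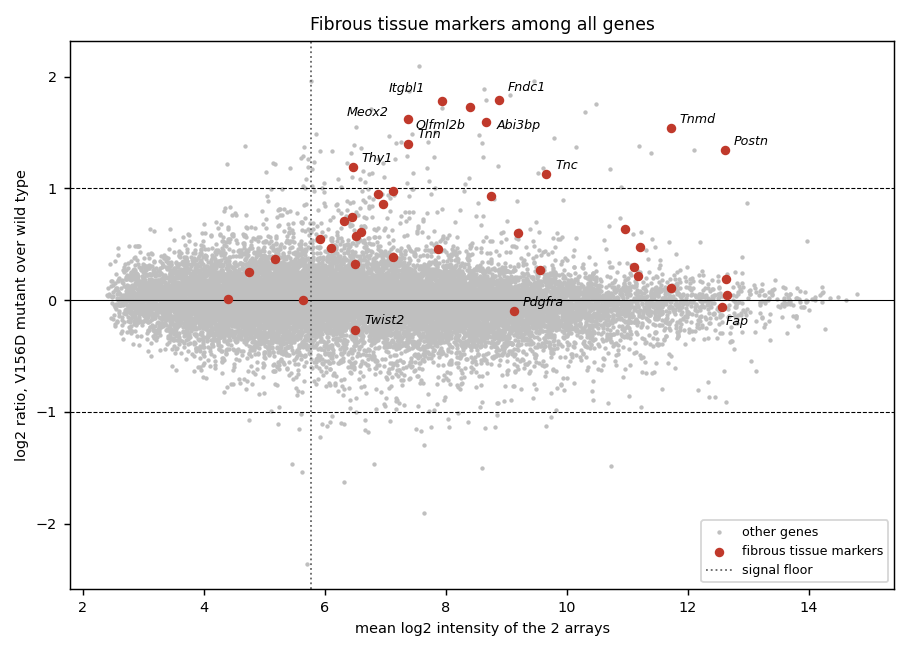
Log2 ratio of V156D mutant over wild type against the mean log2 intensity of the arrays for the 39 markers (red) and all other genes (grey), with lines at 2-fold and the signal floor dotted. The 10 markers past 2-fold, from Tnc at 1.13 to Fndc1 at 1.79, and the 3 markers at or above the floor with ratios below 0 are named.

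Collagens and small proteoglycans of fibrous tissue, which were not among the 39, were also mostly higher in the mutant array. A list of 17 such genes, with the tendon thrombospondin Thbs4 included, had a median log2 ratio of 0.53, with 16 of 17 above 0 and 5 at least 2-fold higher. Kera, encoding the keratocan of tendon and cornea, was highest at 760 in the mutant and 219 in wild type, a ratio of 1.79. Fmod, encoding fibromodulin, which cartilage also makes, was lowest at 18920 in the mutant and 19157 in wild type, a ratio of -0.02.

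The tissue label is cartilage, and all 15 chondrocyte markers lay at or above the floor in both arrays with a median log2 ratio of 0.02, or -0.00 with averaged probe sets. The mutated gene itself, Matn1, had 4340 in the mutant and 4373 in wild type, values that do not tell the alleles apart. Col11a2 was highest of these markers at 0.15 and Col9a2 lowest at -0.35, and the summed intensity of the list was 181826 in the mutant and 179743 in wild type. The summed intensity of the 39 fibrous markers was 57955 in the mutant and 40403 in wild type. Such sums are set by the brightest probe sets and do not describe every gene of a list. Among the bright fibrous markers, Postn had 10007 in the mutant and 3954 in wild type, and Tnmd had 5744 and 1977. Ccdc80, at 6545 and 6330, and Fap, at 5950 and 6189, were nearly equal. Fibrous markers were thus measured in both preparations, 35 of 39 at or above the floor in the mutant array and 34 of 39 in the wild-type array.

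Endothelial markers had higher signals in the mutant array as well, whereas mural markers were spread on both sides of 0, and their part in the fibrous marker values was not tested. Of 12 endothelial markers, 8 were at or above the floor and 7 of these had ratios above 0, the list median over all 12 was 0.87 (0.43 with the offset of 32), and the summed intensity was 1399 in the mutant and 950 in wild type. Cdh5, the cadherin of vessel walls, was highest at 144 in the mutant and 55.1 in wild type, and Egfl7 lowest at a ratio of -0.19. Of 10 mural and smooth muscle markers, 9 were at or above the floor and 7 above 0, with a summed intensity of 6198 in the mutant and 5482 in wild type. They ranged from Rgs5, a pericyte gene, at 1.48 to Cnn1, a smooth muscle calponin, at -1.08, with a median of 0.13, or 0.36 without probe sets ending in _s_at, _x_at or _a_at. The endothelial and mural lists thus held members over 2-fold higher, as the fibrous markers did.

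The lists of other tissues had medians from -0.01 to 0.25. Skeletal muscle markers had a median of -0.01 over 12 genes, 6 of them at or above the floor, from Des at 0.45 to Myod1 at -0.74. They summed to 2186 in the mutant and 2787 in wild type, most of it Tnnt3, at 1388 in the mutant and 1930 in wild type. Blood and macrophage markers had a median of 0.09 over 10 measured genes of 12 listed, 5 of them at or above the floor, from Alas2 at 0.31 to Cd74 at -0.60. They summed to 653 in the mutant and 694 in wild type. Of 8 osteoblast markers listed, 5 were measured and 2 lay at or above the floor, Alpl at 0.24 and Sp7 at 0.09. Below the floor were Ibsp at 0.25, Dmp1 at 0.40 and Phex at 1.22, or 1.09, 0.23 and 0.54 with averaged probe sets. The median was 0.25 over the 5, and they summed to 254 in the mutant and 207 in wild type. Adipocyte and Schwann cell markers had a median of 0.13 over 9 measured genes of 12 listed, 6 of them at or above the floor, from Fabp4 at 0.70 to Pparg at -0.57. They summed to 4451 in the mutant and 3682 in wild type. Most of this sum was S100b, at 3107 in the mutant and 2690 in wild type, so the sum says little about the other genes. With averaged probe sets the adipocyte and Schwann cell median was -0.01 and the muscle median 0.03. No measured marker of the lists was at 0 in either array.

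**Figure D4:**
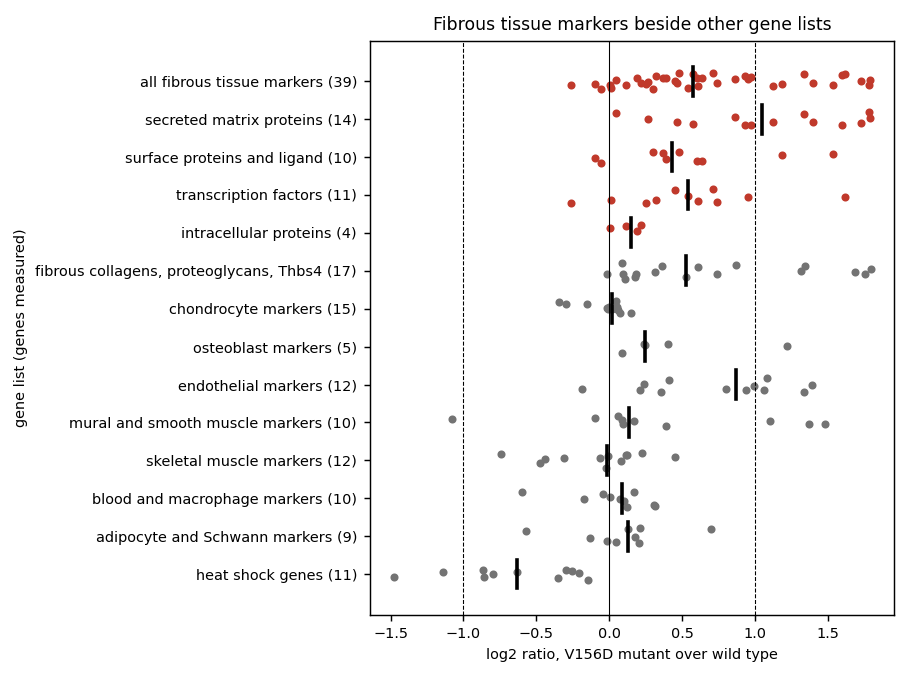
Log2 ratio of V156D mutant over wild type for each gene (points, vertical position arbitrary within a list) and the median (bar) of the fibrous tissue markers, their 4 role groups and 9 other gene lists, with dashed lines at 2-fold. Secreted matrix proteins have the highest median at 1.05, endothelial markers 0.87, chondrocyte markers 0.02 and heat shock genes -0.64.

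The preparations also differed in heat shock genes, which respond to cell stress, and in sex-linked transcripts. All 11 heat shock genes measured had ratios below 0, with a median of -0.64, from Hspa1b at -0.15 to the co-chaperone Dnaja4 at -1.48, and summed to 80148 in the mutant and 106209 in wild type. Xist, named after its value was seen like the Y-linked Eif2s3y, had 5006 in the mutant and 7755 in wild type, and Eif2s3y had 490 in the mutant and 230 in wild type. The labels do not state the sex of the mice, and a difference in the composition of the pools cannot be told apart from the genotype.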

How the data were processed

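RNA of pooled rib cells from 1 V156D mutant and 1 wild-type preparation was hybridised to 1 array each, from 6 µg of total RNA per the labels' protocols. The authors deposited intensities of 45037 probe sets on a linear scale. The log2 of 100% of them had at most 5 decimals (within 0.05 of the last decimal), as values made or rounded on the log2 scale would, so how they were summarised is unknown. The submitters' processing notes name MAS5, with no version. Its settings, scaling and background step, which can alter low signals, were not given in the sources used here. Gene symbols came from the platform annotation in GEO. Of 34945 probe sets with 1 symbol, 34741 were found by Entrez identifier in RefSeq (GRCm38.p6). A further 932 had several symbols, 0 of them naming a marker, and 9160 were unnamed here.

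The log2 of the deposited intensity was used without further scaling, with the brightest probe set per gene (by mean log2 signal) and the floor at the 50th percentile. Markers and lists were chosen with earlier results of these data known. All 39 markers are named, with the highest and lowest gene at or above the floor of each of 9 other lists, and pairs of related genes were set side by side. Some further genes of these lists are named where they set a sum or lay below the floor. Alternatives were quantile normalization, median centring of each array, loess (span 0.3), an offset of 32, a floor at the 40th or 60th percentile, no floor, both arrays at the floor, averaged probe sets, leaving out probe sets ending in _s_at, _x_at or _a_at, and 1.5-fold and 3-fold thresholds. The number of arrays limits the precision. Scripts were tested on simulated data and used Python 3.11.15, numpy 2.4.6, pandas 2.3.3, statsmodels 0.14.6 and matplotlib 3.10.9.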

Additional observations from a re-analysis of the deposited data

How the results depend on the processing

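The direction of the markers as a group was the same under all 10 alternatives of scaling, floor and probe set. The alternative floors leave every ratio and the median unchanged by construction and alter only which markers are counted. Median centring shifts all ratios by the same amount. Only the other alternatives could thus alter the ratios of the markers relative to other genes. The number at least 2-fold higher was 9 or 10 under each and the number at least 2-fold lower 0. Thy1 dropped out with the offset of 32 and Tnc with averaged probe sets. The threshold itself set the count, at 19 for 1.5-fold and 5 for 3-fold. The median of 0.58 was 0.46 with the offset, which shrinks ratios near the floor by construction, and 0.48 with averaged probe sets, and the mean over the markers was 0.68. A median was taken as moved past 0.1 and a single gene past 0.18. The latter is the SD of 0.26 between the ratios of a gene's 2 brightest probe sets, divided by the square root of 2. The sign of 6 of the 39 markers differed under some alternative (Fap, Pi16, Osr2, Vim, Gsn and Cygb), and 33 had 1 sign throughout. Mxra8 and Prrx2 have no value without probe sets ending in _s_at, _x_at or _a_at. No paired analysis was possible because each group holds 1 array, and leaving out a replicate was impossible for the same reason. By that measure 15 of the 39 markers moved under some alternative, 9 of them with the offset (Dpt, Tnn, Itgbl1, Thy1, Scx, Mkx, Twist1, Meox1 and Meox2). Because the offset shrinks large ratios more, a move under it does not by itself show low signal. The 4 markers below the floor were not among these 9, but their ratios rest on low signals.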

Other observations

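The positions of the TATAAA matches were looked at after the matches were known. On the sense strand and 20 to 40 bases before the gene's start, TATAAA occurred in 3 of the 27 markers with a promoter window, or 11.1%, against 2.41% of 27025 genes. They were Postn at 26 bases, S100a4 at 31 bases and Vim at 32 bases. Their log2 ratios of mutant over wild type were 1.34, 0.22 and 0.19, so genes with this arrangement included a marker past 2-fold and markers near equality.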
